A study of Mus musculus with 4 samples.

Results

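The genes described here are 34 genes of the lysosome, named by their roles and chosen with earlier results of these data known: the cathepsins and other lysosomal proteases, glycosidases and lipid hydrolases, their cofactors, membrane proteins, subunits of the proton pump and the regulator Tfeb. All 34 symbols were found among the 31253 genes of the matrices. They were measured by single-cell RNA sequencing (10x Genomics 3′ chemistry) in live CD45+ cells sorted from hemispheres that carried a glioma of the CT2a mouse line, taken 14 days after implantation. The mice were 4 WT and 4 CaMKK2 KO animals on the C57Bl/6 strain. The knockout is present in every tissue of the animal, so a difference in a class of cells does not say that Camkk2 was needed in those cells, and both groups carried the same tumor and received no further treatment. The methods of the study describe the animals as young adult females of matched age. The 4 mice of a genotype were marked with hashtag antibodies and pooled on 1 channel, so genotype and channel cannot be told apart.

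Lysosomes are the acidic organelles in which macrophages break down what they have engulfed. A V-type proton pump acidifies them, cathepsins and legumain cut proteins, including antigens and the invariant chain for MHC class II, and hydrolases with their cofactors release sugars, fatty acids and cholesterol. TFEB is a transcription factor that binds promoters of many lysosome genes at the E-box CACGTG and its extended form TCACGTG. In brain tumors the lysosome-rich cells are microglia, which are resident, and tumor-associated macrophages (TAMs), which largely derive from blood monocytes.

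The matrices held 6689 WT and 7271 CaMKK2 KO barcodes, of which 42 sequences occurred in both, and 5156 and 5678 cells passed hashtag assignment and quality filters. Each mouse kept 1032 to 1677 cells and 12122284 to 20452037 unique molecular identifiers (UMIs). Cells were placed in classes by panels of marker genes, and every class name here means cells that resemble the named type by those markers. DC3 here names mature migratory dendritic cells, by the markers Ccr7, Fscn1, Ccl22, Cacnb3, Il4i1 and Socs2. Of the 10834 cells, 9496 fell in a class, among them 3083 TAMs (1775 WT and 1308 CaMKK2 KO), 505 microglia (347 and 158), 611 and 1243 classical monocytes, 680 and 902 T cells, and 508 and 759 NK cells. Smaller classes were thin in some mice. WT mouse 1 gave 3 DC3 cells and 5 non-classical monocytes, and CaMKK2 KO mouse 4 gave 2 DC1 cells. Classes that were tested were thin in places too. WT mouse 1 gave 36 T cells and 36 classical monocytes. The CaMKK2 KO mice gave 26 to 56 microglia each, and CaMKK2 KO mouse 4 gave 12 DC2 cells. The microglia panel was at 3718 to 6901 counts per 1000000 (CPM) in microglia and at no more than 484 CPM in any other class. The TAM panel was at 13732 to 19325 CPM in TAMs but reached 30418 CPM in microglia, which also express C1q. Camkk2 itself was at 28.5, 29.5, 38.6 and 27.6 CPM in the WT mice and at 14.8, 18.3, 13.3 and 22.6 CPM in the CaMKK2 KO mice, with no overlap between the groups (exact permutation test, two-sided, p = 0.0286, the smallest this design allows).

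Lysosome genes took the largest share of the RNA in microglia, followed by TAMs, and were low in lymphocytes. CPM here are UMIs of a gene per 1000000 UMIs of the class in that mouse, and since a UMI of the 3′ chemistry counts a molecule, they are not divided by gene length. The 34 genes together held 4.60% ± 0.315 (SD, n = 4) of the UMIs of WT microglia, 2.90% ± 0.0541 in TAMs, 1.87% ± 0.236 in classical monocytes and 1.41% ± 0.137 in non-classical monocytes. The 3 dendritic cell classes lay between 0.781% and 0.935%, and B, T and NK cells at 0.306%, 0.243% and 0.218%. The 4 WT microglia values, 4.20% to 4.91%, lay above the 4 WT TAM values, 2.84% to 2.97%. In WT mice 23 of the 34 genes had their highest mean in microglia, 6 in TAMs, 2 in classical monocytes, 2 in non-classical monocytes and 1 in DC1.

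**Figure D1:**
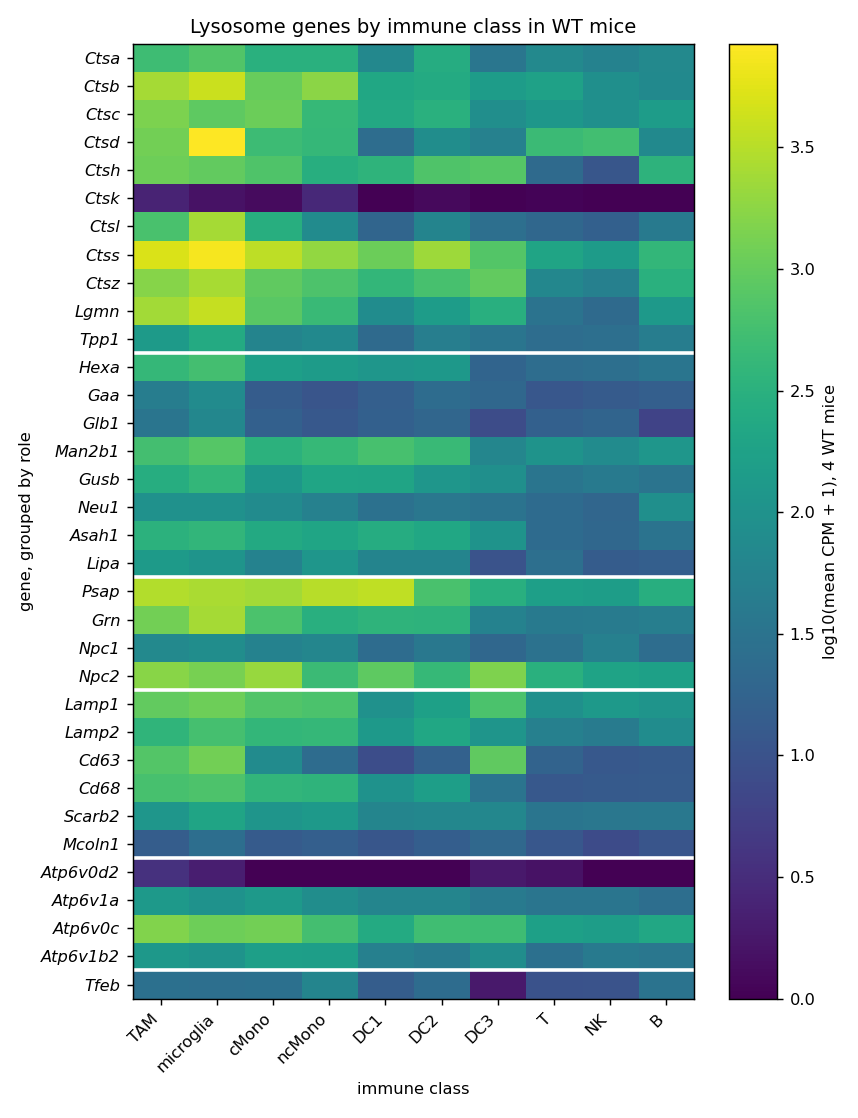
Mean level of each of the 34 genes (rows, grouped by role with white lines between roles) in 10 immune classes (columns) of 4 WT mice, as log10 of CPM + 1. Microglia and TAMs are the brightest columns, Ctsk and Atp6v0d2 are near 0 in all classes, Psap is brightest in DC1 at 3498 CPM, and Cd63 is bright in microglia, TAMs and DC3.

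In WT mice the set was led by Ctss in TAMs and by Ctsd in microglia. In WT TAMs the leading gene was Ctss, a cysteine protease that cuts the invariant chain, at 5036 ± 461 CPM (SD, n = 4), or 17.3% of the UMIs of the set. Ctss, Psap, Ctsb, Lgmn and Npc2 together made up 50.2% of that set's UMIs. In WT microglia Ctsd, the main aspartic protease of the lysosome, led at 8424 ± 1652 CPM with a range of 6140.1 to 9886 CPM, followed by Ctss at 7413 ± 230.0 CPM, and the ranges of both genes overlapped. In CaMKK2 KO mice Ctss led in both classes, at 4937 ± 333 CPM in TAMs and 8392 ± 500.5 CPM in microglia, where Ctsd was at 7308 ± 2462 CPM. Some genes departed from this order. Psap, the precursor of the saposins that present lipids to hydrolases, was highest in DC1 at 3498 ± 671 CPM, above its 2959.7 ± 229 CPM in TAMs, although the 2 ranges overlapped. Cd63, a tetraspanin of late endosomes, was at 918 ± 323 CPM in DC3 against 15.6 ± 7.46 CPM in DC2 and 7.41 ± 4.06 CPM in DC1. The DC3 mean weighs the 4 WT mice equally, with 3 cells in mouse 1 and 17 to 27 in the others. Npc2, which hands cholesterol from hydrolases to the membrane protein Npc1, was highest in classical monocytes at 2113 ± 643 CPM. In T and NK cells Ctsd led, at 467 ± 106 CPM and 547 ± 50.9 CPM. A pair of genes were close to undetected: Ctsk had 40 and 29 UMIs, and Atp6v0d2 85 and 31 UMIs, over all WT and CaMKK2 KO TAMs.

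Within the same WT mice, TAMs and microglia differed in most of these genes. Of 32 genes tested, 18 were lower and 4 higher in TAMs (edgeR quasi-likelihood test with the mouse as a block, adjusted p under 0.05 over all genes), where 28.5% and 16.6% of all 9763 genes were called lower and higher. The largest differences were in Ctsd, at a log2 fold change of -2.75 ± 0.20 (SE, adjusted p = 1.03e-08), and in Ctsl, a cysteine protease, at -2.04 ± 0.22 (adjusted p = 1.49e-06). Glb1 (beta-galactosidase) at -1.01 and Grn (progranulin) at -0.99 followed. The 4 genes higher in TAMs were Ctsc at 0.68, which activates granule serine proteases, the pump subunits Atp6v1a at 0.43 and Atp6v0c at 0.37, and Npc2 at 0.35. With TMM scaling the count was 18 lower and 8 higher, where 2075 and 2121 of all 9763 genes were called lower and higher. In CaMKK2 KO mice 20 were lower and 5 higher in TAMs, against 22.5% and 15.7% of all genes.

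Promoter sequences help to see which of these genes carry the E-box CACGTG near a transcript start. RefSeq promoters of build GRCm38.p6, from 250 bases before to 50 bases after a transcript start, were matched for 28 of the 34 genes (35 promoters). Ctsb, Ctsh, Npc1, Asah1, Atp6v0d2 and Atp6v1b2 had no promoter entry and were not searched. CACGTG, which reads the same on both strands, occurred in 9 of these genes: Atp6v1a, Ctsa, Ctsd, Ctsl, Gaa, Glb1, Lamp1, Lgmn and Mcoln1. That was 25.7% of the 35 promoters against 7.15% of all 32851 promoters of the same length. TCACGTG on either strand, which contains CACGTG, occurred in 22.9% against 3.77%. The promoters of the set also held more CG dinucleotides, with a median of 11 against 7, and more G and C, 56.3% against 52.7%, and the part of base composition in the difference was not tested. The promoters printed here are those of the genes that had a match and were called lower in CaMKK2 KO TAMs (Ctsd, Lgmn and Atp6v1a), and the one of Lamp1, which held 4 matches, the most of the set. All are written 5′ to 3′ on the strand of the gene, with each CACGTG in capitals. They lie at chr7:142387778-142388077 (minus strand), chr12:102439043-102439342 (minus), chr16:44139210-44139509 (minus) and chr8:13158911-13159210 (plus).
Ctsd: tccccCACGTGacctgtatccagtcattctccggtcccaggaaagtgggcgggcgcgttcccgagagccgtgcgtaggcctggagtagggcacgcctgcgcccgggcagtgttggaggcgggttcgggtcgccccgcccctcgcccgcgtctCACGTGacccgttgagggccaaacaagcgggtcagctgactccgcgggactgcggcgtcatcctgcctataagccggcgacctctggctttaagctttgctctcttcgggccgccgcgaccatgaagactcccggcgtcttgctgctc
Lgmn: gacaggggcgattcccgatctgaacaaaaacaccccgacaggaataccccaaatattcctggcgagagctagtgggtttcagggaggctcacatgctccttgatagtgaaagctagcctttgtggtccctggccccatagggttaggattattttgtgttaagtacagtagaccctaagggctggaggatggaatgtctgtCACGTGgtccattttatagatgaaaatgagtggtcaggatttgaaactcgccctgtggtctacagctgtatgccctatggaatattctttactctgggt
Atp6v1a: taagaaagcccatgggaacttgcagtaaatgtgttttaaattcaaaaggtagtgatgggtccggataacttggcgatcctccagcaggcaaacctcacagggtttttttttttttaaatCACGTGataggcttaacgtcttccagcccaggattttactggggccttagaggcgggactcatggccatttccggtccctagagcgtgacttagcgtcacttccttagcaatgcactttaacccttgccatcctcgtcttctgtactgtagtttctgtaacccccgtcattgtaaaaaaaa
Lamp1: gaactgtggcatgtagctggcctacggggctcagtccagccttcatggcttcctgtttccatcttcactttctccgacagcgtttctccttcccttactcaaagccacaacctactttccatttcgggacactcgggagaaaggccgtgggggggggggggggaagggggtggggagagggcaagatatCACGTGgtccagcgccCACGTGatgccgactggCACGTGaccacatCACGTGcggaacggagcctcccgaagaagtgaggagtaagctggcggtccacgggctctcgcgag
The matches began 245 and 98 bases before the start in Ctsd, 49 bases before it in Lgmn and 131 bases before it in Atp6v1a. In Lamp1 they began 61, 45, 28 and 15 bases before it. The windows of Ctsd, Lgmn and Atp6v1a belong to transcript starts that lie inside the annotated gene. A match is a run of letters, and binding was not measured here.

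Between genotypes, 7 lysosome genes fell in CaMKK2 KO TAMs and none rose. They were the membrane proteins Scarb2 and Cd63, the proteases Ctsb, Ctsd, Tpp1 and Lgmn, and the pump subunit Atp6v1a, with losses of 23.9% to 65.7%. Of the 34 genes, 32 had at least 200 UMIs in the class and were tested (Ctsk and Atp6v0d2 were not), and the 7 calls among them are read against 1.64% of all 9390 genes called lower and 1.05% called higher (edgeR quasi-likelihood test on UMIs summed per mouse, Benjamini-Hochberg over all genes). At an unadjusted p under 0.05, 17 of the 32 were lower and 2 higher, against 15.0% and 7.15% of all genes. In 13 of the 32 every CaMKK2 KO mouse lay below every WT mouse, which held for 10.1% of all genes, and in 1, Ctsc, every CaMKK2 KO mouse lay above, against 4.32%. The median log2 fold change of the 32 was -0.22, and that of all genes -0.08.

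The size of these calls depends on scaling. Levels were scaled to the total UMIs of the class. With TMM factors, which shifted the median of all genes from -0.08 to 0.01, only Scarb2 (adjusted p = 0.00262) and Cd63 (adjusted p = 0.0256) of the 7 passed, against 0.958% of all genes called lower, the other 5 had adjusted p of 0.0532 to 0.0807, and the calls over all genes changed from 99 higher and 154 lower to 127 higher and 90 lower. The same scaling moved the median of all genes in microglia from -0.11 to 0.00. The number of genes with a fold change below 0 went from 29 to 24 of 32. All 7 were lower in each of 17 alternative settings, and were called in 17 (Scarb2), 15 (Cd63), 11 (Ctsb), 11 (Atp6v1a), 10 (Ctsd), 8 (Lgmn) and 7 (Tpp1) of them. The number of lysosome genes called lower was 4, 3, 2 and 1 without WT mouse 1, 2, 3 and 4, and 2, 4, 8 and 2 without CaMKK2 KO mouse 1, 2, 3 and 4. Over all genes, 102, 72, 75 and 63 were called lower without the WT mice in that order. Without the CaMKK2 KO mice these were 98, 78, 239 and 75.

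Of the membrane proteins, 2 of 6 fell (gene positions here are those of the GENCODE annotation on mm10). Scarb2 (chr5:92441314-92506833), the receptor that carries glucocerebrosidase to the lysosome, was at 114, 126, 105 and 109.6 CPM in the 4 WT mice and at 62.5, 53.5, 69.2 and 64.9 CPM in the 4 CaMKK2 KO mice. The groups did not overlap, and the fold change was -0.86 ± 0.10 on the log2 scale (SE, adjusted p = 0.00184). Camkk2 lies on the same chromosome (chr5:122731170-122779409), as does Gusb (chr5:129989011-130003049). The part of DNA linked to the knocked-out gene in their differences was not tested. Cd63 (chr10:128900989-128912822) had the largest change of the 32. Cd63 was at 1005, 607, 661 and 679 CPM in the 4 WT mice and at 307, 191, 361 and 152 CPM in the 4 CaMKK2 KO mice. WT mouse 1 was high and CaMKK2 KO mice 2 and 4 were low, so the spread was wide, and the log2 fold change was -1.54 ± 0.28 (adjusted p = 0.0217). The other 4 were not called: Lamp1, a major glycoprotein of the lysosomal membrane, stood at -0.18 ± 0.08 on that scale (adjusted p = 0.224), Cd68, a macrophage lysosomal glycoprotein, -0.15 ± 0.11, the calcium channel Mcoln1 -0.11 ± 0.14, and Lamp2, needed for fusion with autophagosomes, 0.00 ± 0.08. For Lamp2 an approximate 95% interval, taken from the normal distribution and so too narrow for 4 mice a group, ran from -0.15 to 0.16.

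**Figure D2:**
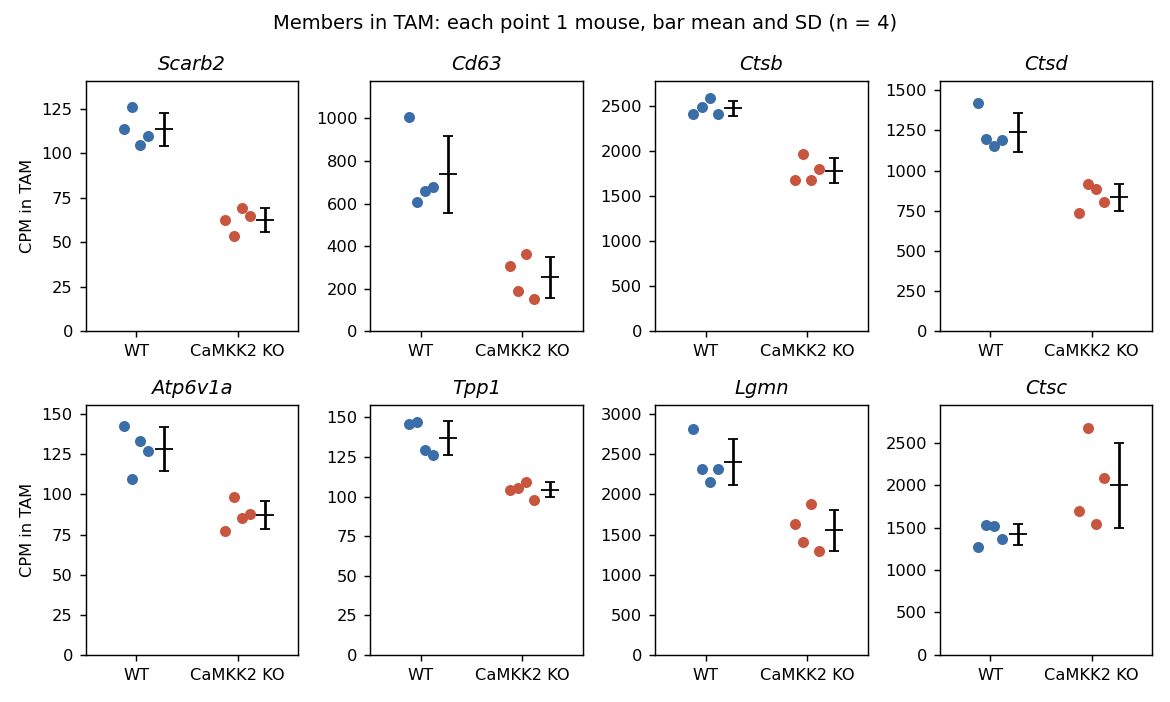
CPM in TAMs of the 7 genes called lower in CaMKK2 KO mice and of Ctsc, not called, with 1 panel per gene, a y axis from 0, 1 point per mouse, and bars for mean ± SD (n = 4). In the 7 panels from Scarb2 to Lgmn all CaMKK2 KO points lie below all WT points, and in the Ctsc panel they lie above.

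Of the 10 proteases tested, 4 fell. Ctsb (chr14:63122462-63145923), a cysteine protease, was the most abundant of them. Ctsb was at 2410.0, 2489, 2583 and 2404 CPM in the 4 WT mice and at 1671, 1964, 1672 and 1797 CPM in the 4 CaMKK2 KO mice, with no overlap and a log2 fold change of -0.48 ± 0.09 (adjusted p = 0.0289). Lgmn (chr12:102394084-102439813), an asparagine-specific protease that also matures cathepsins, showed more spread. Lgmn was at 2812, 2319, 2155 and 2316 CPM in the 4 WT mice and at 1635, 1412, 1875 and 1289 CPM in the 4 CaMKK2 KO mice, again with no overlap, for a log2 fold change of -0.63 ± 0.14 (adjusted p = 0.0457). Ctsd was at 1420.2, 1196, 1152 and 1187 CPM in the 4 WT mice and at 733, 919, 887 and 802 CPM in the 4 CaMKK2 KO mice. WT mouse 1 stood above the other 3, and the log2 fold change of Ctsd (chr7:142375911-142388038) was -0.57 ± 0.11 (adjusted p = 0.0290). Tpp1 (chr7:105744811-105752235) removes tripeptides from the ends of proteins. Tpp1 was at 146, 147, 129 and 126 CPM in the 4 WT mice and at 104, 106, 109 and 98.0 CPM in the 4 CaMKK2 KO mice, a small but even difference of -0.39 ± 0.08 (adjusted p = 0.0406).

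The most abundant protease was not called. Ctss was at 4359, 5147, 5376 and 5261 CPM in the 4 WT mice and at 4558, 5242, 4758 and 5190.4 CPM in the 4 CaMKK2 KO mice, and the groups overlapped. The log2 fold change was -0.03 ± 0.10 (adjusted p = 0.901). Its approximate 95% interval, taken from the normal distribution and so too narrow for 4 mice a group, was -0.23 to 0.18. Ctsz, a carboxypeptidase, was also not called. Ctsz was at 1465, 1609, 1821 and 1613 CPM in the 4 WT mice and at 1487, 1525, 1292 and 1612 CPM in the 4 CaMKK2 KO mice, at -0.14 ± 0.11 (adjusted p = 0.471). Ctsc was at 1272, 1527, 1516 and 1371 CPM in WT and 1691, 2668, 1545 and 2087 CPM in CaMKK2 KO mice. Its groups did not overlap, but the CaMKK2 KO mice were widely spread, and its log2 fold change of 0.49 ± 0.17 was not called (adjusted p = 0.132, against 0.0398 with DESeq2). Ctsa, the serine carboxypeptidase that protects beta-galactosidase and neuraminidase, had -0.25 ± 0.09, Ctsl -0.36 ± 0.24 and the aminopeptidase Ctsh -0.03 ± 0.11 (adjusted p = 0.153, 0.411 and 0.907).

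None of the 8 glycosidases and lipid hydrolases was called, although all 8 had fold changes below 0 with the main scaling and 7 with TMM. Gaa, which degrades glycogen, came closest at -0.35 ± 0.08 (adjusted p = 0.0533), and its mice did not overlap. Gusb (beta-glucuronidase) had -0.46 ± 0.12 and Lipa, which frees cholesterol from its esters, -0.52 ± 0.14 (adjusted p = 0.0797 and 0.0815). The others were Man2b1 (alpha-mannosidase) at -0.41 ± 0.15, Hexa (beta-hexosaminidase) at -0.23 ± 0.13, Neu1 (sialidase) at -0.20 ± 0.08, Glb1 at -0.18 ± 0.14 and Asah1 (acid ceramidase) at -0.06 ± 0.09.

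None of the 4 cofactors and lipid transfer proteins was called. Psap was at 2629.5, 2979.8, 3118 and 3111 CPM in the 4 WT mice and at 2736, 3032, 2896 and 2692 CPM in the 4 CaMKK2 KO mice, with overlap and a log2 fold change of -0.06 ± 0.10 (adjusted p = 0.751). Npc2 was at 1294, 1879.6, 1879 and 1762 CPM in the 4 WT mice and at 1827, 2399, 1919 and 2804 CPM in the 4 CaMKK2 KO mice. Only the lowest CaMKK2 KO value lay within the WT range, and the log2 fold change was 0.39 ± 0.17 (adjusted p = 0.212). Its partner Npc1 had -0.38 ± 0.14 (adjusted p = 0.153) and Grn -0.21 ± 0.09 (adjusted p = 0.209). Of the 3 pump subunits tested, Atp6v1a (chr16:44085402-44139705), the catalytic one, fell. Atp6v1a was at 143, 109.8, 133 and 127 CPM in the 4 WT mice and at 77.3, 98.5, 85.1 and 87.9 CPM in the 4 CaMKK2 KO mice, without overlap, at -0.56 ± 0.11 (adjusted p = 0.0290). The membrane subunit did not pass the test. Atp6v0c was at 1390.2, 1477, 1579 and 1527 CPM in the 4 WT mice and at 1381, 1563, 1302 and 1519 CPM in the 4 CaMKK2 KO mice, at -0.05 ± 0.09 (adjusted p = 0.789). The other subunit of the peripheral sector, Atp6v1b2, had -0.11 ± 0.12 and the regulator Tfeb -0.36 ± 0.12 (adjusted p = 0.604 and 0.141). Together the 34 genes held 2.84%, 2.91%, 2.97% and 2.90% of TAM UMIs in the WT mice and 2.48%, 2.79%, 2.56% and 2.65% in the CaMKK2 KO mice.

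**Figure D3:**
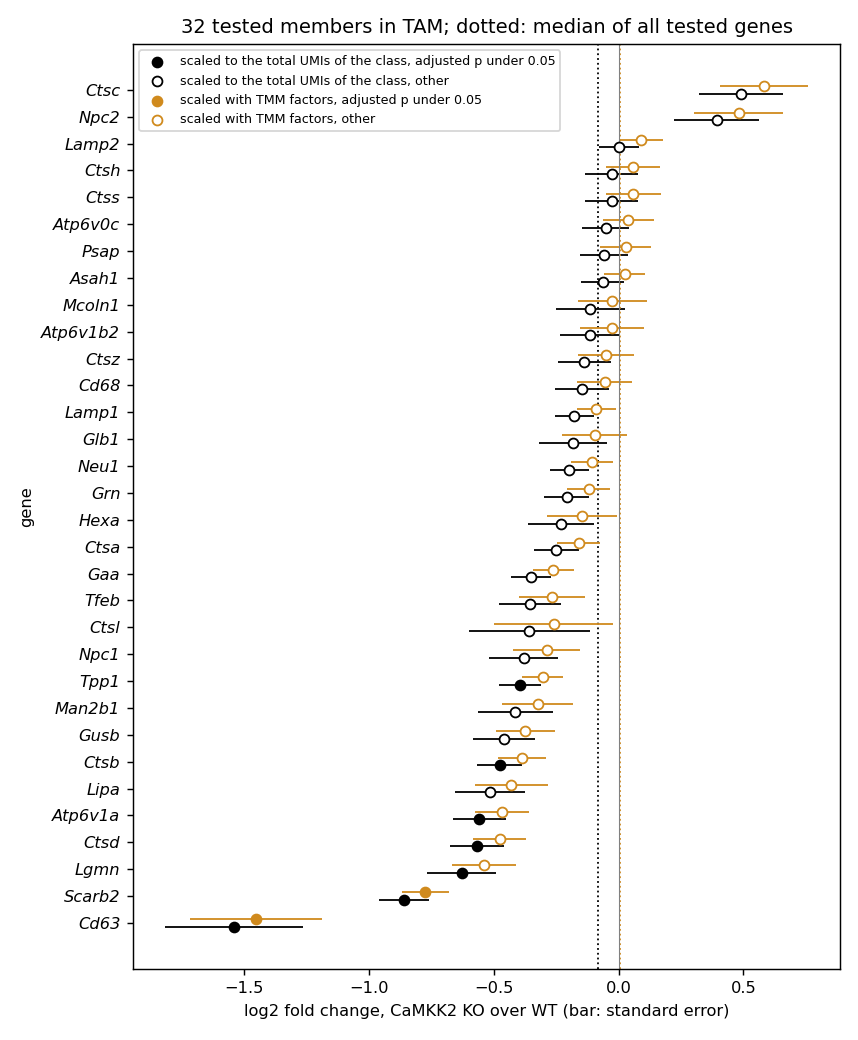
Log2 fold change, CaMKK2 KO over WT, of the 32 tested lysosome genes in TAMs with its standard error, under scaling to total UMIs (black) and TMM scaling (orange), filled where the adjusted p was under 0.05. Dotted lines mark the medians of all genes, -0.08 and 0.01. The 7 filled black points lie between -0.39 and -1.54, and the filled orange points are Scarb2 and Cd63.

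Other features of the TAM class moved with genotype. The 4 MHC class II genes (H2-Aa, H2-Ab1, H2-Eb1 and Ciita) summed to 1809 to 9767 CPM in WT TAMs and 30134 to 38448 CPM in CaMKK2 KO TAMs. The 5 lipid-associated genes (Gpnmb, Spp1, Fabp5, Lpl and Trem2) summed to 1632 to 3389 and 781 to 1433 CPM. The 10 microglia markers, of which 9 had lower means in the knockout and none was at 0, summed to 361 to 484 CPM in WT and 183 to 302 CPM in CaMKK2 KO TAMs, or 6.85% and 3.73% of their level in the microglia class. The 7 classical monocyte markers summed to 484 to 1516 and 1362 to 4291 CPM. The part of these in the differences above was not tested. When the marker panels had to be separated by a margin of 0.2 in place of 0.1, the same 7 genes were called. That setting changed the class little, with 9299 against 9390 genes tested, and cannot address these markers within TAMs. With classes taken from clusters, 9 of 33 lysosome genes were called lower, as were 173 of all 9707 genes.

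Outside the set, 88 of 91 other lysosome genes from a list grouped by role were tested in TAMs. Of these, 3 fell, against 1.64% of all genes, and none rose: Pld3, a lysosomal exonuclease, at -0.61 ± 0.11 (adjusted p = 0.0229), Aga (aspartylglucosaminidase) at -0.47 ± 0.10 (adjusted p = 0.0368) and the pump subunit Atp6v1d at -0.44 ± 0.09 (adjusted p = 0.0406). The 3 calls are 2 of 27 other hydrolases and 1 of 13 other pump subunits, with none among 8 other proteases, 4 protease inhibitors, 24 membrane proteins and 12 sorting or regulatory genes. The median of the 88 was -0.11, and 25 were lower and 9 higher at an unadjusted p under 0.05, against 15.0% and 7.15% of all genes.

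Within each mouse, part of the set varied with the state of the TAM. TAMs of a mouse were ranked by their lipid-associated genes and split into 3 equal groups, and the top group was set against the bottom group (59 to 183 cells each). Gpnmb, a gene of this ranking, is also on the list of other lysosome genes. In all 8 mice 14 of the 32 tested genes were higher in the top group, against 3.95% of all tested genes, a share that also depends on how many UMIs a gene has. They were led by Ctsd at 1.32 ± 0.30 (log2 ratio, SD over 8 mice), Ctsl at 1.08 ± 0.24, Cd63 at 1.02 ± 0.36 and Ctsb at 0.75 ± 0.16. Tfeb was the 1 gene lower in all 8, at -0.20 ± 0.13, against 6.86% of all tested genes. The top groups also held more UMIs per cell in every mouse, with medians of 14206 to 18389.5 against 12105 to 16583.5. The medians of all genes were -0.07 to -0.02.

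Ranking by MHC class II genes gave the opposite order for part of the set. This ranking spanned less in the knockout. For H2-Aa, a gene of the ranking, the log2 ratio was 5.52 to 7.01 in WT mice and 1.16 to 1.98 in CaMKK2 KO mice. Ctsd at -0.95 ± 0.34, Ctsl at -0.62 ± 0.36, Cd63 at -0.51 ± 0.32, Glb1 at -0.43 ± 0.23, Grn at -0.43 ± 0.10, Ctsb at -0.39 ± 0.15, Cd68 at -0.26 ± 0.16, Ctsc at -0.18 ± 0.10 and Lgmn at -0.18 ± 0.10 were lower in the top group in 8 of 8 mice. These are 9 of the 32 tested genes, against 8.21% of all tested genes. Npc2 at 0.23 ± 0.17, Psap at 0.22 ± 0.13 and Ctss at 0.16 ± 0.16 were higher in 8 of 8, which held for 3.76% of all tested genes. The medians of all genes were -0.08 to -0.02. Of the 7 genes called between genotypes, Scarb2, Atp6v1a and Tpp1 pointed the same way in 8 of 8 mice under neither ranking. These ratios describe cells of the same mouse and were not tested.

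**Figure D4:**
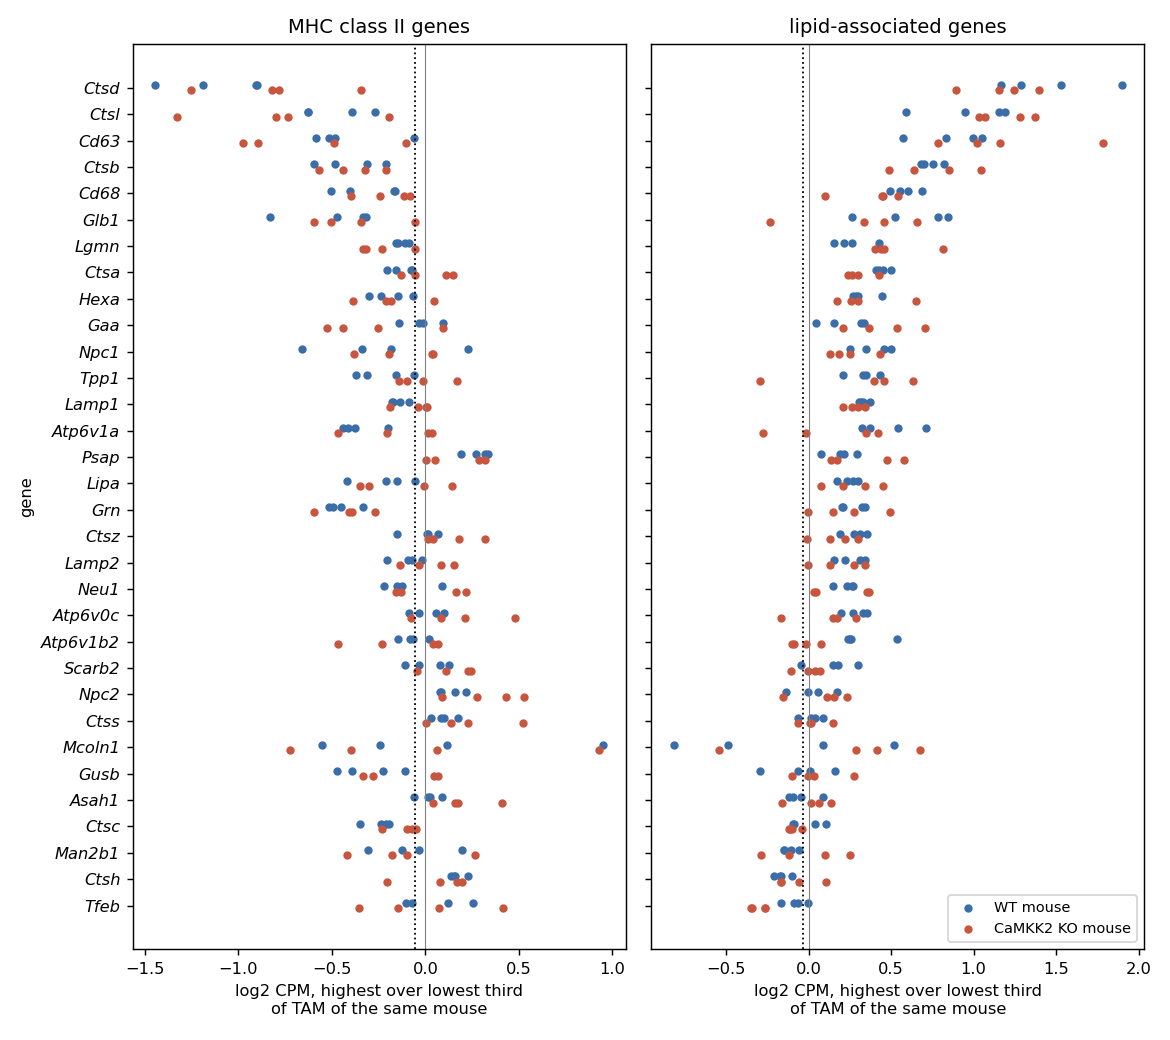
Log2 ratio of CPM between the top and the bottom of 3 equal groups of TAMs of a mouse, ranked by MHC class II genes (left) or lipid-associated genes (right), for the 32 tested lysosome genes, with 1 point per mouse. The dotted line is the median over mice of the all-gene median. Ctsd, Ctsl, Cd63 and Ctsb lie left of 0 in the left panel and right of 0 in the right panel in all 8 mice.

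In the other myeloid classes fewer genes passed. Microglia showed no call among 30 genes tested, where 0.766% of all genes were called lower and 0.585% higher, and 9 were lower and 1 higher at an unadjusted p under 0.05, against 12.1% and 4.03% of all genes. In 5 of the 30 (Cd63, Atp6v1a, Neu1, Cd68 and Lgmn) every CaMKK2 KO mouse lay below every WT mouse, against 7.62% of all genes, and in 1 (Ctss) above, against 2.58%. Their largest differences were in genes that also fell in TAMs, Cd63 at -0.91 ± 0.24 and Atp6v1a at -0.75 ± 0.20 (adjusted p = 0.0795 and 0.0806). Cd63 passed with DESeq2, and 4 genes passed without CaMKK2 KO mouse 3, where 121 of all 4546 genes were called. The difference of the genotype effect between TAMs and microglia was called for none of 32 genes (edgeR, with 0.133% of all genes called). At an unadjusted p under 0.05 it was 5 of 32, against 8.73% of all genes. For Cd63 it was -0.60 ± 0.16 (adjusted p = 0.239).

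Classical monocytes showed 1 call among 31 genes, against 0.82% of all genes lower and 1.06% higher. Scarb2 was at 85.9, 126, 130.1 and 106 CPM in WT and 69.2, 60.1, 76.9 and 64.8 CPM in CaMKK2 KO mice, without overlap, for a log2 fold change of -0.77 ± 0.15 (adjusted p = 0.0305). Without overlap between the groups were 3 genes below (Scarb2, Npc1 and Grn), against 5.88% of all genes, and 0 above, against 4.76%. Scarb2 was lower in 13 of 13 alternatives and called in 6, and not without WT mouse 2, 3 or 4 or CaMKK2 KO mouse 1, 2 or 4, nor with classes taken from clusters (adjusted p = 0.0513 to 0.1249). In DC2 none of 23 genes was called by edgeR (0 by DESeq2), with 0.404% of all genes called lower and 0.573% higher. Without CaMKK2 KO mouse 3, 1 of 21 was called, as were 232 of all 2628 genes. At an unadjusted p under 0.05 were 4 of the 23, against 16.4% of all genes. Its groups separated for no gene below, against 4.82%, and for 1 above, Psap, against 5.36% of all genes.

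Ctsd, which fell in TAMs, rose in NK cells. In NK cells it was at 487, 533, 562 and 608 CPM in WT mice and at 821, 874, 799.8 and 806 CPM in CaMKK2 KO mice. All 4 CaMKK2 KO values were above all WT values, and Ctsd rose by 0.59 ± 0.10 on the log2 scale (adjusted p = 0.00415), a call that held in 13 of 13 alternatives. Ctsa also rose in NK cells, from 53.9 ± 6.11 CPM to 76.5 ± 6.41 CPM (log2 fold change 0.51 ± 0.13, adjusted p = 0.0499), but was called in 3 of 13 alternatives and had an adjusted p of 0.088 with TMM. Among 25 genes tested in NK cells these were the 2 higher calls, with Lgmn called lower, where 1.8% of all genes were called higher and 0.837% lower. The CaMKK2 KO mice lay above all WT mice for 5 genes (Ctsd, Ctsa, Ctsc, Npc2 and Npc1), against 7.63% of all genes, and below for 2 (Lgmn and Grn), against 3.19%. In T cells Ctsd was at 315, 517, 556 and 478 CPM in WT and at 753, 584, 618 and 657 CPM in CaMKK2 KO mice, without overlap, but did not pass (log2 fold change 0.46 ± 0.15, adjusted p = 0.136). Lgmn was the 1 call among 28 genes in T cells, against 0.588% of all genes lower and 0.825% higher. There the CaMKK2 KO mice lay above for 6 genes (Ctsd, Ctsb, Ctsz, Atp6v1a, Atp6v0c and Npc2), against 8.65% of all genes, and below for Lgmn alone, against 3.09%. B cells, for which no test was run, went the other way for Ctsd, at 84.3, 79.1, 74.1 and 50.6 CPM in WT and 37.0, 38.9, 47.6 and 30.0 CPM in CaMKK2 KO mice, from 51 and 39 UMIs in all.

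The Lgmn calls in T and NK cells lay near the level of C1q genes, relative to TAMs. Lgmn reached 1.29% and 1.10% of its TAM level in WT and CaMKK2 KO T cells and 0.915% and 0.779% in NK cells. C1q genes, which lymphocytes lack, reached 1.40% and 1.46% in T cells and 1.05% and 1.16% in NK cells in the highest mouse. The Lgmn values are means of 4 mice. In the highest mouse Lgmn reached 1.51% and 1.64% in T cells, above C1q, and 0.981% and 0.971% in NK cells, below it. The mean C1q levels lay below the Lgmn mean, except C1qc at 0.835% in CaMKK2 KO NK cells. The part of background RNA from other cells in the Lgmn calls was not tested. Median UMIs per cell were 8932 and 8708 in T cells, 8526 and 6247 in NK cells and 16320 and 16171 in TAMs (WT and CaMKK2 KO). Ctsd in contrast stood at 44.7% of its TAM level in WT NK cells and 99.4% in CaMKK2 KO NK cells, and at 38.5% and 79.5% in T cells. Other features of the NK class moved with genotype as well. The lipid-associated genes summed to 109 to 169 CPM in WT and 203 to 638 CPM in CaMKK2 KO NK cells. The classical monocyte markers summed to 798 to 1021 and 1281 to 1456 CPM, and the TAM panel to 143 to 178 and 88.2 to 125 CPM. The part of these in the lymphocyte differences was not tested. 

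The difference in the genotype effect was tested directly, in a fit chosen after the separate results were seen. Between TAMs and NK cells it was called for 3 genes, against 1.07% of all genes. Ctsd differed by -1.16 ± 0.13 (adjusted p = 0.000999) and Lipa by -1.19 ± 0.25 (adjusted p = 0.0372), and both passed with TMM (adjusted p = 0.00301 and 0.0425). Ctsa differed by -0.74 ± 0.15 (adjusted p = 0.0240, 0.0564 with TMM). Between TAMs and T cells 3 genes were called, against 0.775% of all genes. Ctsb differed by -0.90 ± 0.15 (adjusted p = 0.0116, 0.0351 with TMM), Ctsd by -1.03 ± 0.21 (adjusted p = 0.0283) and Atp6v1a by -0.93 ± 0.19 (adjusted p = 0.0279). The last 2 missed the threshold with TMM (adjusted p = 0.0833 and 0.0835).

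**Figure D5:**
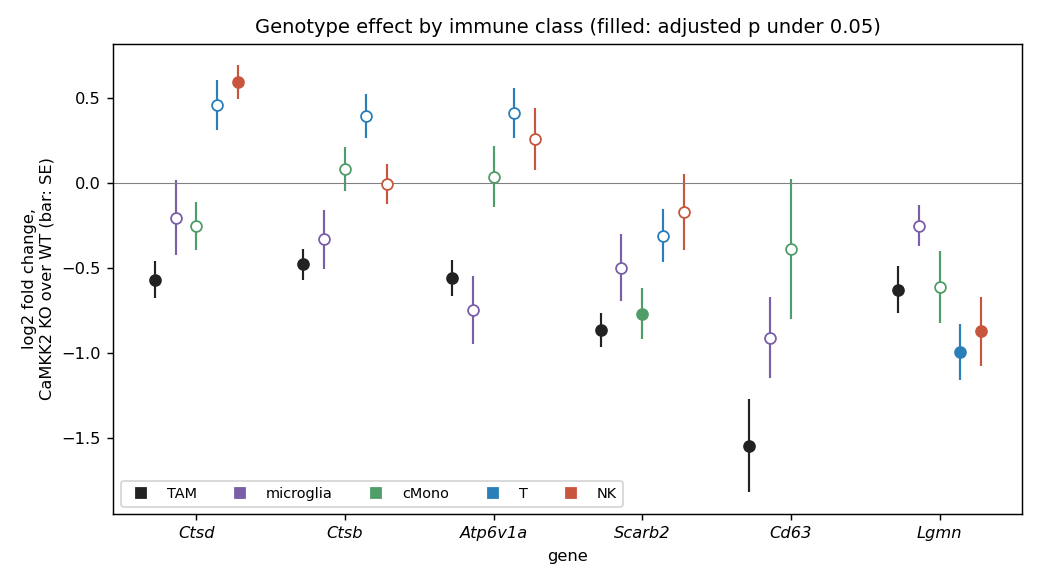
Log2 fold change, CaMKK2 KO over WT, with its standard error for 6 lysosome genes (x axis) in 5 immune classes (colors), filled where the adjusted p was under 0.05 and left out where a gene was not tested in a class. Ctsd is below 0 in TAMs at -0.57 and above 0 in NK cells at 0.59, and Scarb2 is below 0 in all 5 classes, filled in TAMs and classical monocytes.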

How the data were processed

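The deposited matrices hold raw UMI counts per gene and hashtag for 2 pooled channels, made by the authors with bcl2fastq 2.20, Cell Ranger 4.0.0 and STAR 2.7.5c on mm10. Hashtag singlets with at least 200 genes were kept, cells over 3 median absolute deviations from the median in genes, UMIs or mitochondrial percentage were left out (744 WT and 922 CaMKK2 KO), and Scrublet (scanpy 1.11.5) removed 69 and 92 further cells. A cell was placed in the class of its highest marker panel at a score of at least 0.3 and a margin of 0.1, with microglia taking precedence from 0.35. The scoring rule was set on the data. In all 1328 cells stayed outside any class, 10 were mixed, and 147 TAMs lay within 0.05 of a limit. Of the 3083 TAMs, 2961 fell in TAM clusters and 100 in the microglia cluster of a separate clustering. UMIs were summed per mouse and class, scaled to the total UMIs of the class, and tested with edgeR 4.0.16 (quasi-likelihood, genes whose sum in the class reached 200 UMIs, Benjamini-Hochberg adjusted p under 0.05), with the mouse as replicate and no pairing. TAMs and microglia of the same mice were fitted with the mouse as a block. The TAM fits against NK and T cells were added after the values were seen. Tests were tried on simulated data with known changes. The alternatives used TMM, DESeq2 1.42.0, limma 3.58.1 on log2(CPM + 1), filters of 20 UMIs or 1 UMI, cells or doublets kept, clusters, a wider margin, and each mouse left out. The 34 genes and all lists were chosen with earlier results of these data known. All 34 are named by role, with values per mouse for those called in TAMs and the 8 highest in WT TAMs, and other lysosome genes are named where called in TAMs.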

Additional observations from a re-analysis of the deposited data

Results flagged for a closer look

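Ctsd in TAMs of WT mouse 1 was at 1420.2 CPM, far above the other 3 WT mice, whose values lay together. This was the only one of 48 groups of 4 mice checked that held such a mouse, and chance alone flags about 1 in 20. Its genotype effect was -0.50 on the log2 scale without that mouse and missed the threshold. The genotype effect differed between TAMs and NK cells, by a direct test added after the values were seen, for Ctsd (-1.16 on the log2 scale), Lipa (-1.19) and Ctsa (-0.74). It differed between TAMs and T cells for Ctsd (-1.03), Atp6v1a (-0.93) and Ctsb (-0.90).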

How the results depend on the processing

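No paired analysis was possible because the labels give the mice no numbers, and a hashtag shared by both genotypes marks an antibody. The number of genes changed in TAMs was 620 with DESeq2, 495 without a filter on low counts, and 105 to 409 when a mouse was left out. Lysosome genes lower in TAMs numbered 2 with TMM and 1 to 8 without a mouse, and with DESeq2 1 was higher (Ctsc). The cause of the TMM difference was not tested. Elsewhere, leaving out a mouse gave 0 to 4 calls in microglia (1 with DESeq2), 0 to 1 in classical monocytes (0 with cluster classes), 0 to 1 in DC2, 0 to 1 in T cells (2 with a filter of 20 UMIs, 0 with cluster classes) and 1 to 5 in NK cells (5 with outlying cells kept). Without CaMKK2 KO mouse 3 alone, 4 genes passed in microglia, 1 in DC2 and 5 in NK cells. Calls over all genes rose as well. They were 121 of 4546, 232 of 2628 and 820 of 5530 genes, against 67 of 4961, 29 of 2968 and 167 of 6330 with all mice. In NK cells 1 passed without WT mouse 1, 2 or 3 or CaMKK2 KO mouse 1, 2 or 4, and in T cells 0 passed without WT mouse 3. Calls of a different genotype effect between TAMs and T cells fell to 1 with TMM. The summed share in WT TAMs was 2.84% with cluster classes. Log2 fold changes in TAMs near 0 changed sign. With TMM and DESeq2 they were 0.059 and 0.055 for Ctss, 0.028 and 0.023 for Psap, 0.024 and 0.021 for Asah1, 0.059 and 0.054 for Ctsh, and 0.038 and 0.033 for Atp6v0c. With outlying cells kept Ctss was at 0.0028, and with doublets kept Lamp2 was at -0.0036. Leaving out a mouse gave -0.037 to 0.027 for Lamp2, -0.092 to 0.0079 for Ctss and -0.097 to 0.026 for Ctsh. A count of 200 UMIs over 8 mice limits what could be tested, and leaves Ctsk and Atp6v0d2 without a test in TAMs.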
